A study of Mus musculus with 4 samples.

Results

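Klrg1, Klrk1, Klrd1, Klrc1 and Klrb1c are 5 killer lectin-like receptor genes among the 32285 genes counted in single hepatic CD4+ T cells of mice with diet-induced steatohepatitis. They were taken by symbol, and each has 1 row in both count tables. Liver CD4+ T cells had been sorted from male WT mice and from male dKO mice, which carry floxed Nr4a1 and Nr4a2 alleles (Nr4a1 fl/fl Nr4a2 fl/fl) and a Cd4-Cre transgene. Nr4a1 and Nr4a2 encode nuclear receptors that are induced by T cell receptor signalling. Cd4-Cre is active during thymic development, so it also deletes in T cells that later lose CD4. Both genotypes spent 8 weeks on a high-fat diet without choline (CD), in which fat supplied 60 kcal% and methionine was held at 0.1%. Cells of 2 mice were pooled into 1 library per genotype. A separate library of T cell receptor (TCR) contigs, the assembled receptor chains, was made from each pool. The 2 mice of a pool cannot be separated, so no comparison between genotypes has a replicate or a p-value. The question addressed is where these receptors are transcribed among hepatic CD4+ T cells and the cells sorted with them, and how the libraries differ.

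Killer lectin-like receptors are C-type lectin-like surface proteins first described on natural killer (NK) cells and found also on activated and innate-like T cells. Klrg1 encodes KLRG1, an inhibitory receptor for cadherins that is borne by differentiated effector and regulatory T cells. Klrk1 encodes NKG2D, an activating receptor for stress-induced ligands that signals through DAP10 (Hcst) and, in mice, also DAP12 (Tyrobp). Klrd1 encodes CD94, which pairs with NKG2A, the inhibitory product of Klrc1, to bind Qa-1 (H2-T23). Klrb1c encodes NKR-P1C, known as NK1.1, an activating receptor used to identify NK and NKT cells. Invariant NKT cells are T cells whose receptor α chain joins TRAV11 to TRAJ18 and recognises lipids on CD1d.

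All 5 genes lie on chromosome 6 in the GRCm38 annotation (GENCODE M21) and are protein coding. Klrg1 (ENSMUSG00000030114) spans 122270596 to 122282882 on the minus strand, apart from the others. Klrb1c (ENSMUSG00000030325) spans 128778485 to 128789215 on the minus strand. Klrd1 (ENSMUSG00000030165) spans 129591782 to 129598775 on the plus strand. It is followed by Klrk1 (ENSMUSG00000030149), from 129610323 to 129623864, and Klrc1 (ENSMUSG00000030167), from 129666015 to 129678973, both on the minus strand. Klrc1 shares long stretches with Klrc2 and Klrc3, and Klrb1c with the other Klrb1 genes, so the division of reads within these families is uncertain.

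The TRAV11/TRAJ18 cells were chosen by their contigs, and the cell filter and the removal of cells with markers of other lineages took the class from 57 to 52 cells in the WT library and from 61 to 56 in the dKO library. No killer lectin-like gene entered the choice. The class was 1.44% and 1.25% of the T cells with a receptor. The 108 cells carried 14 different nucleotide sequences at the junction (CDR3), and the 4 most frequent covered 96 cells. These 4 are shown as the most frequent junctions of the class, which was itself gated by TRAV11 and TRAJ18 and not by the junction. Each is 45 bases long, written 5′ to 3′, and the capital marks base 12, the only position at which they differ.
C form: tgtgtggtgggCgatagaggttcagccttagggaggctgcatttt
G form: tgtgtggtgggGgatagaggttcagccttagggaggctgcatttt
A form: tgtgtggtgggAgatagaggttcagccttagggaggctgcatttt
T form: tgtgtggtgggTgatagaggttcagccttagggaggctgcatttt
The C form was found in 12 WT and 22 dKO cells, the G form in 18 and 13, the A form in 10 and 11, and the T form in 5 and 5. All 4 forms therefore occurred in both libraries, in 45 of 52 WT cells and 51 of 56 dKO cells. A β chain of the TRBV13, TRBV29 or TRBV1 families, which invariant NKT cells favour, was present in 45 WT and 48 dKO cells. The cells belonged to 52 WT and 55 dKO clonotypes, so they were not products of 1 expanded clone. Zbtb16, the transcription factor PLZF that marks NKT cells, reached 292 CPM (UMIs, the counts of captured RNA molecules, scaled to 1000000 per class) in the WT class against 11.6 CPM in other T cells. In the dKO library it reached 190 CPM against 10.5 CPM. The label of the class was therefore borne out by a gene the gate had not used.

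Promoter sequence from RefSeq (GRCm38.p6) is shown for Klrk1, Klrc1 and Klrb1c, 3 receptor genes that were higher together in the TRAV11/TRAJ18 cells. Each window runs from 250 bases before to 50 bases after the transcription start and is read on the gene's minus strand, 5′ to 3′. The Klrb1c window lies inside the gene span given above (128778485 to 128789215), so the start used for it is not that of the GENCODE annotation. The capitals mark the letters TGTGGT or their reverse complement ACCACA, the core bound by Runx factors.
Klrk1, chr6:129623815-129624114: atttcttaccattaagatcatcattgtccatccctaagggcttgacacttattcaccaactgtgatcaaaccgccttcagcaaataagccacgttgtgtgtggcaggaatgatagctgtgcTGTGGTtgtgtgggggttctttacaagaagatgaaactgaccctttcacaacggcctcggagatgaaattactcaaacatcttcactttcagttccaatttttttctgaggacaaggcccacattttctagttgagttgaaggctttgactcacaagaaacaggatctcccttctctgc
Klrc1, chr6:129678924-129679223: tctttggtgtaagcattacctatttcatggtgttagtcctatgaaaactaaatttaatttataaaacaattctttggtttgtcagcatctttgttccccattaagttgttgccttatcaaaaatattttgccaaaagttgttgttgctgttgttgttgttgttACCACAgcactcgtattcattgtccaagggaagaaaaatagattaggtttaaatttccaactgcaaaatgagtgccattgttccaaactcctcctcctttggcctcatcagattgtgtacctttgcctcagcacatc
Klrb1c, chr6:128788592-128788891: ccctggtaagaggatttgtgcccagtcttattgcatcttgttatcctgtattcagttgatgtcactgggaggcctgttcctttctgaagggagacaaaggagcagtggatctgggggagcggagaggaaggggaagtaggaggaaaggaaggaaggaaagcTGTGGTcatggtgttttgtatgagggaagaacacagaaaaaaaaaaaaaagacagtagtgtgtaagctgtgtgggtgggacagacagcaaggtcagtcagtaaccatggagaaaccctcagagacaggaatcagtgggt
Each of the 3 windows held 1 Runx match, starting at base 122, 164 and 162 of the window for Klrk1, Klrc1 and Klrb1c. Such a match occurs in 16.8% of the 32851 mouse promoters of that length. None of the 3 held GGTGTG or CACACC, the T-box core, which 19.0% of promoters hold. These matches describe the letters of the windows and not bound sites. The promoters of Klrg1 and Klrd1 were not analysed here.

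The tables held 10602 WT and 17645 dKO cells, and 10556 and 17462 were kept (over 200 genes, under 5% mitochondrial counts), with median depths of 1679 and 1685 UMIs (unique molecular identifiers). A productive TCR contig was found for 3845 WT and 4906 dKO cells. After cells with markers of other lineages were set aside, 3606 WT (34.2%) and 4476 dKO cells (25.6%) were kept as receptor T cells. Cells without a contig were gated by markers, and 245 barcodes occurred in both libraries. The targeted gene went against the label: Nr4a1 was 732 CPM in receptor T cells of the library labelled WT and 1862 CPM in the library labelled dKO. Nr4a2 stood at 189 and 396 CPM. The counts do not show whether the reads fall in the floxed part, so they do not test the deletion, and WT and dKO below mean the libraries so labelled. Cd4 transcript also differed, at 246 CPM in WT and 796 CPM in dKO receptor T cells, whose part in the receptor values was not tested.

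Levels are given as CPM, the gene's share of all UMIs of the class, with exact Poisson 95% intervals. A ratio carries an exact conditional binomial 95% interval, and a share of cells an exact Clopper-Pearson 95% interval. Shares of a class come from cells thinned to 1000 UMIs each, so that deeper classes do not detect more, with the unthinned share beside them. Shares of a single clonotype are unthinned over all its cells and so are not matched for depth. These intervals cover counting error only, not the difference between mice.

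Klrg1 was high in the Foxp3 cells of both libraries and, in dKO, was also detected in a minority of the other T cells. Foxp3 encodes the factor that defines regulatory T cells. In receptor T cells Klrg1 was 44.3 CPM (40.2 to 48.8) in WT and 310 CPM (299 to 321) in dKO, a 6.99-fold difference (log2 2.81, 2.66 to 2.96). The thinned share of cells with a UMI was 2.96% (2.41 to 3.59) and 19.0% (17.8 to 20.3), against 5.63% and 26.2% unthinned. Of 6443 genes with at least 20 CPM in either library and at least 10 UMIs over both, 3.43% were at least 2-fold higher in dKO and 2.53% were at least 2-fold lower.

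The Klrg1 difference between libraries was small in Foxp3 cells and large outside them. In all Foxp3 receptor T cells (261 WT and 1356 dKO) Klrg1 was 311 CPM (276 to 351) and 441 CPM (420 to 464), a log2 ratio of 0.50 (0.32 to 0.69). Among Foxp3 cells outside the cell cycle it was 283 CPM in WT and 497 CPM in dKO (log2 0.81, 0.58 to 1.05). Cycling Foxp3 cells showed the opposite order, 378 and 274 CPM (log2 -0.46, -0.81 to -0.11). They numbered 44 in WT and 142 in dKO. Their thinned Klrg1 shares overlapped, at 29.5% (16.8 to 45.2) and 19.0% (12.9 to 26.4), against 56.8% and 42.3% unthinned. In the conventional cells, which had neither a Foxp3 UMI nor a TRAV11/TRAJ18 chain (3293 WT and 3064 dKO), Klrg1 was 17.1 CPM (14.4 to 20.1) and 237 CPM (224 to 250). That ratio was log2 3.79 (3.54 to 4.05), and its interval lay well above that of the Foxp3 cells. Outside the 2 largest dKO clonotypes the Foxp3 values of the libraries had overlapping intervals, as given by clonotype size below.

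Within each library the step from conventional to Foxp3 cells therefore had a different size. Foxp3 cells exceeded conventional cells by log2 4.19 (3.89 to 4.49) in WT and by 0.90 (0.79 to 1.0) in dKO. In WT 3.75% of 6595 genes were 2-fold higher in Foxp3 cells and 1.59% lower, and in dKO 0.628% and 1.26% of 6371 genes. Klrg1 entered the WT comparison only through its Foxp3 cells and is not read against that share. The thinned share of Klrg1+ cells was 18.5% and 29.2% in WT and dKO Foxp3 cells (38.3% and 41.7% unthinned). In conventional cells it was 1.75% and 14.6% (3.13% and 19.7% unthinned). For comparison, pDC-like cells, which should lack the transcript, had a thinned Klrg1 share of 0.182% and 2.05%.

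Outside the Foxp3 classes, Klrg1 was higher in dKO in each receptor T class described here. The cells that met no other gate had 21.6 CPM in WT and 347 CPM in dKO, a 16.0-fold ratio. Cells with an Ifng UMI, a Th1 cytokine, had 22.2 and 128 CPM. Cycling cells without Foxp3 had 15.4 and 90.6 CPM. Cells with Il17a or Il17f UMIs gave 0 UMIs in WT and 64.2 CPM in dKO, at least 3.57-fold higher against the 3-UMI floor used for every class at 0. The CD3+ cells without a contig, 4096 WT and 7486 dKO cells that form the largest class, gave 42.3 and 356 CPM (log2 3.07, 2.91 to 3.24). In the order of classes, noncycling Foxp3 cells stood first in dKO, with an interval apart from that of every other class, and the CD3+ cells without a contig and the ungated receptor T cells followed with overlapping intervals. The WT order was led by the 2 Foxp3 groups, and most of the classes behind them had intervals that overlapped their neighbours.

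**Figure D1:**
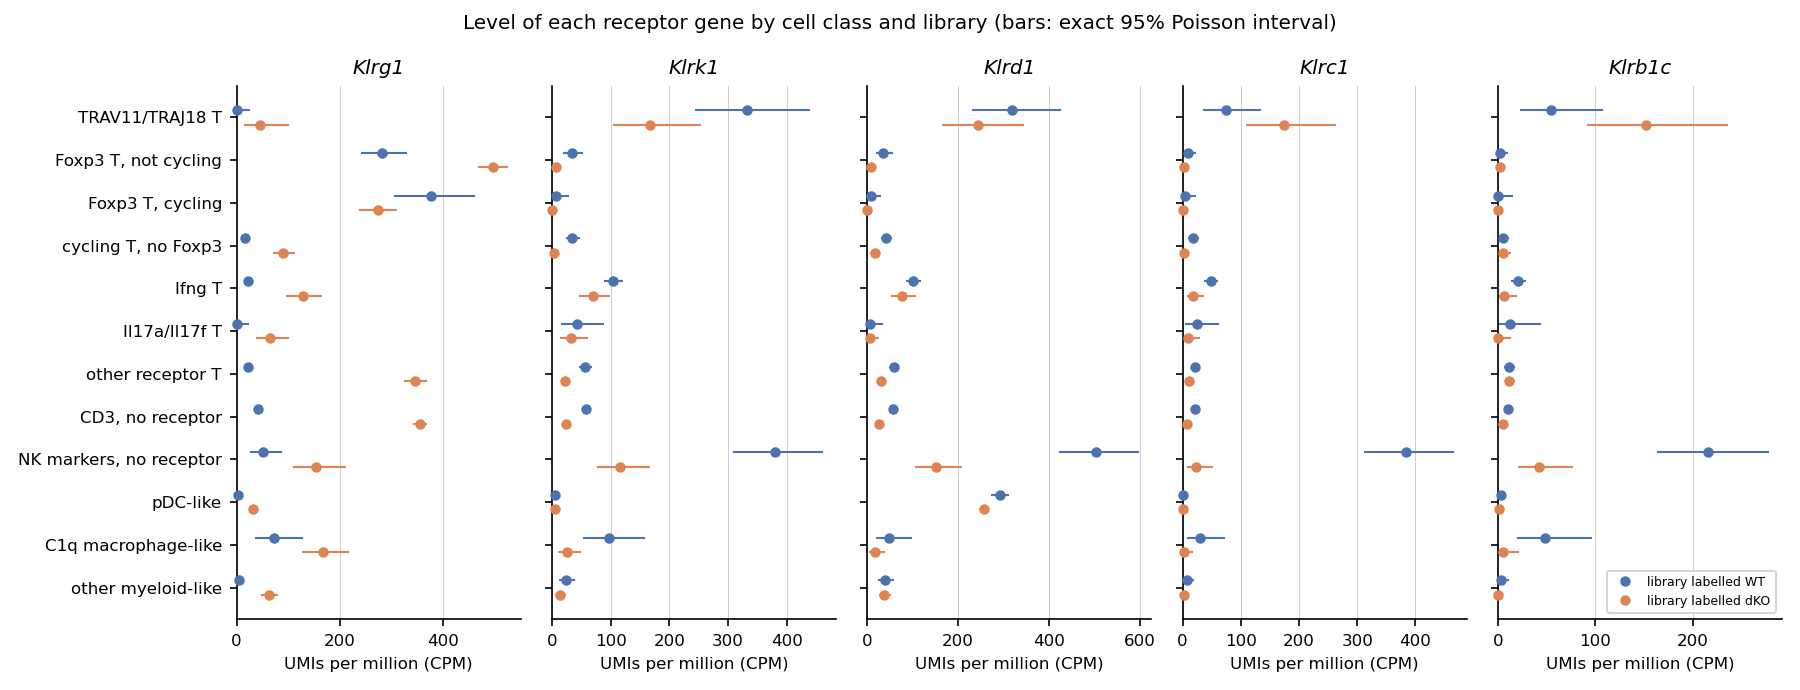
Level of each receptor gene (CPM, x axis, own scale for each gene) in 12 cell classes (rows) for the WT (blue) and dKO (orange) library, with bars for the exact 95% Poisson interval. Klrg1 is highest in the 2 Foxp3 rows in WT and in the noncycling Foxp3 row in dKO (497 CPM), where other receptor T cells (347 CPM) stand above cycling Foxp3 cells (274 CPM), while Klrk1, Klrd1, Klrc1 and Klrb1c peak in the TRAV11/TRAJ18 and NK-marker rows and Klrd1 also in pDC-like cells (292 and 258 CPM).

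Much of the Klrg1 transcript in dKO came from a pair of expanded clones. A clonotype is the set of cells that share their receptor chains, and its cells descend from 1 T cell and are not replicates. The clonotype with the most cells in dKO held 419 cells, 9.36% of receptor T cells, and 156 of them (37.2%) had a Foxp3 UMI. Without thinning, at a median depth of 1269 UMIs, Klrg1 was detected in 85.7% (82.0 to 88.9) of its cells, at 1484 CPM. The next clonotype, with 106 cells of which 48 had Foxp3, was Klrg1+ in 90.6% (83.3 to 95.4) at 1597 CPM. These 2 clonotypes carried 1321 of the 2931 Klrg1 UMIs of dKO receptor T cells (45.1%), and the first alone 1031 (35.2%).

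Expansion alone did not go with a high Klrg1 level. The dKO clonotypes of 79, 53 and 48 cells were Klrg1+ in 11.4%, 24.5% and 18.8% of cells, at median depths of 1532, 1822 and 2626 UMIs. The 5 WT clonotypes with the most cells (95, 86, 69, 34 and 28) reached 7.14% at most. Without the 419-cell clonotype and its WT counterpart of 95 cells the log2 ratio in receptor T cells was 2.25, without the 5 largest of each library 2.00, and with each clonotype counted as 1 cell 1.83, against 2.81 with all cells.

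**Figure D2:**
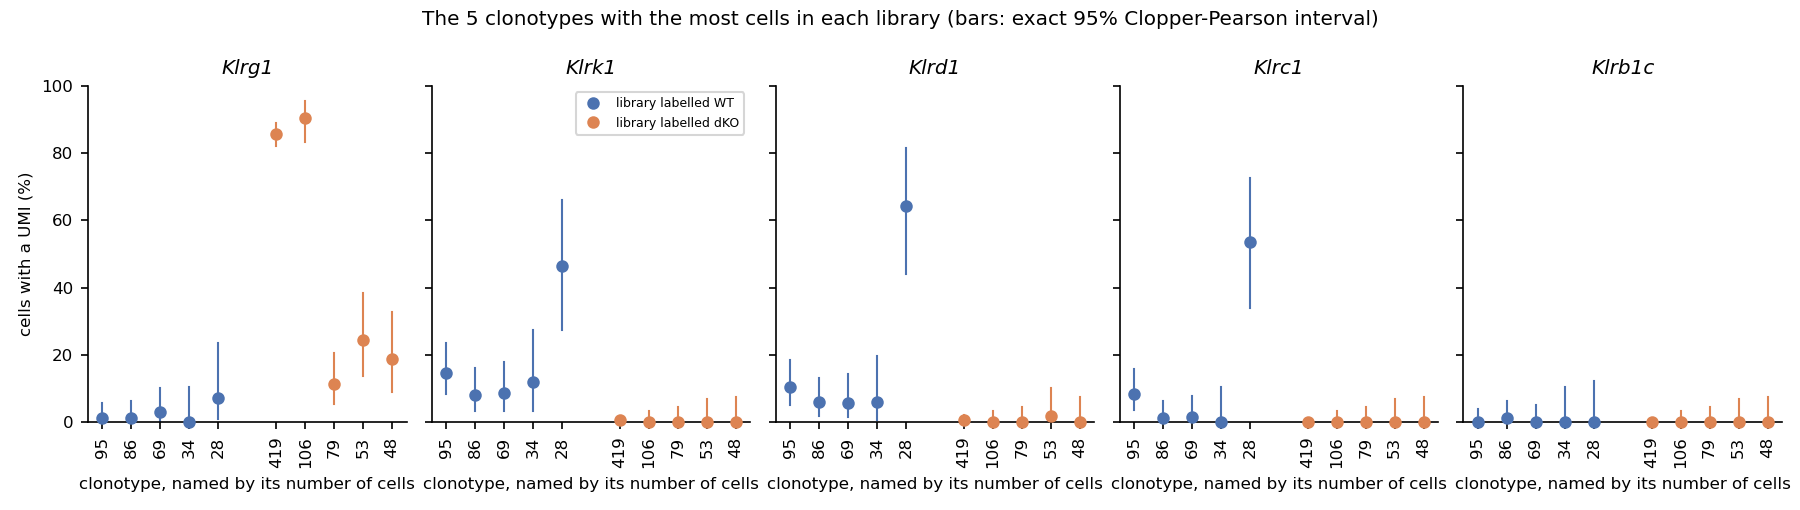
Percent of cells, not thinned, with a UMI of each receptor gene (y axis) in the 5 clonotypes with the most cells of the WT (blue) and dKO (orange) library, named on the x axis by their number of cells, with exact 95% Clopper-Pearson intervals. Klrg1 stands at 85.7% and 90.6% in the dKO clonotypes of 419 and 106 cells, and Klrk1, Klrd1 and Klrc1 stand at 46.4%, 64.3% and 53.6% in the WT clonotype of 28 cells.

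Conventional cells that shared a clonotype with a Foxp3 cell had a higher Klrg1 level than those that did not in both libraries. In dKO, 953 such cells had 589 CPM (552 to 628) and the 2111 others 99.9 CPM (90.5 to 110). The 2 largest dKO clonotypes held 730 of the 958 Klrg1 UMIs of the first group, and without them its 632 cells had 195 CPM (171 to 222), a reading added after the data were seen. In WT, 358 such cells had 30.2 CPM (19.3 to 44.9) and the 2935 others 15.7 CPM (13 to 18.8). When every cell of a clonotype with a Foxp3 cell was counted as Foxp3, the dKO over WT ratio in the remaining cells was log2 2.67 against 3.79, a reading added after the data were seen. A Foxp3 cell in which no Foxp3 UMI was captured counts as conventional here, and its part in these values was not tested.

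By size of clonotype, Klrg1 in cells without Foxp3 was 106 CPM in dKO clonotypes of 1 cell, 151 CPM in those of 2 to 9 cells and 664 CPM in those of 10 or more. The WT values were 15.2, 18.8 and 19.1 CPM. Cells without Foxp3 include the TRAV11/TRAJ18 cells in these counts by size. The group of 10 or more cells in dKO was carried by its 2 largest clonotypes: without them it stood at 123 CPM (99.9 to 150), an interval that overlapped those of the smaller clonotypes, a reading added after the data were seen. The dKO single-cell clonotypes were above every WT size group. In Foxp3 cells of clonotypes of 1 cell, Klrg1 was 301 CPM (262 to 344) in WT and 318 CPM (292 to 345) in dKO. In those of 2 to 9 cells it was 423 CPM (321 to 547) and 315 CPM (279 to 354). Foxp3 cells of dKO clonotypes of 10 or more had 806 CPM, and 272 CPM (227 to 323) without the 2 largest. The 11 WT Foxp3 cells of such clonotypes held 2 UMIs.

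Klrk1, the NKG2D gene, had the reverse distribution. It was low in Foxp3 cells, highest in TRAV11/TRAJ18 and NK-marker cells, and lower in dKO than in WT receptor T cells. In receptor T cells it stood at 56.7 CPM (52.0 to 61.7) in WT and 18.7 CPM (16.1 to 21.7) in dKO, log2 -1.60 (-1.85 to -1.35). The thinned share was 4.53% (3.85 to 5.29) and 1.65% (1.27 to 2.10), against 9.04% and 2.99% unthinned. The ratio was -1.22 (-1.51 to -0.94) in conventional and -2.35 (-3.33 to -1.40) in Foxp3 cells, the last from 23 and 18 UMIs. With Foxp3 cells gated at 2 UMIs in place of 1 the Foxp3 ratio was -0.17, so its size rests on the gate.

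Among the other T cell classes Klrk1 was highest in Ifng+ cells, at 104 CPM in WT and 70.1 CPM in dKO. Cycling cells without Foxp3 had 34.3 and 4.26 CPM. CD3+ cells without a contig stood at 58.8 and 24.6 CPM (log2 -1.26, -1.48 to -1.04). The background was low: pDC-like cells held 5.54 and 6.02 CPM, and a thinned share of 0.273% and 0.420%. In dKO, all Foxp3 cells (5.13 CPM) and cycling cells without Foxp3 (4.26 CPM) were not above it. Nor were dKO cells without Foxp3 in clonotypes of 10 or more (4.82 CPM). Ratios with these values are therefore not exact. C1q macrophage-like cells (73 WT and 132 dKO) had a thinned Klrk1 share of 3.77% (2 of 53, 0.460 to 13) and 1.71% (2 of 117, 0.208 to 6.04), too few cells to set apart from receptor T cells, and their summed CD3 genes stood at 1675 and 1486 CPM. In the 28 WT macrophage-like cells without a CD3 UMI all 5 genes were at 0 UMIs, which allows up to 88.9 CPM. In the 41 dKO cells of that kind Klrk1 had 4 UMIs, Klrg1 3 and Klrd1 2.

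Klrk1 was lower in larger clonotypes in dKO. In cells without Foxp3 it was 38.6 CPM in clonotypes of 1 cell, 16.9 CPM in those of 2 to 9 and 4.82 CPM in those of 10 or more. In WT the values were 57.1, 47.8 and 86.0 CPM. The TRAV11/TRAJ18 cells, with 49 WT and 22 dKO Klrk1 UMIs, are counted among these cells, and their part was not tested. When each clonotype was counted as 1 cell, the dKO over WT ratio in receptor T cells was -1.03 against -1.60.

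Klrd1 and Klrc1, which encode the 2 chains of the CD94/NKG2A receptor, moved with Klrk1. Klrd1 in receptor T cells was 57.5 CPM (52.8 to 62.6) in WT and 25.2 CPM (22.1 to 28.6) in dKO, log2 -1.19 (-1.42 to -0.97). Klrc1 was 23.5 CPM (20.5 to 26.8) and 8.36 CPM (6.62 to 10.4), log2 -1.49 (-1.88 to -1.11). In conventional cells the ratio was -0.80 for Klrd1 and -1.47 for Klrc1. In Foxp3 cells it was -2.33 (-3.28 to -1.40) for Klrd1 and -2.48 (-4.48 to -0.61) for Klrc1, the latter from 7 and 5 UMIs. Both genes, like Klrk1, were at their highest among the T cell classes outside TRAV11/TRAJ18 in Ifng+ cells of both libraries, where Klrd1 stood at 101 and 76.3 CPM and Klrc1 at 48.0 and 18.6 CPM.

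Foxp3 cells, called by a UMI in the single cell, held less of these transcripts than conventional cells of their own library. In WT the log2 difference was -1.07 for Klrk1, -1.04 for Klrd1, -1.61 for Klrc1 and -3.21 for Klrb1c. In dKO it was -2.20, -2.57, -2.62 and -2.57 in the same order. Klrb1c in both libraries and Klrc1 in dKO were under 20 CPM in both groups and are not part of the background. When Foxp3 was called by clonotype in WT, the values were -0.09 for Klrk1, -0.15 for Klrd1 and -0.30 for Klrc1, and with Foxp3 at 2 UMIs Klrk1 was -3.06. With the highest Scrublet scores and cells with 2 or more TRB chains removed Klrd1 was -2.47 in WT, and Klrk1 was -3.71 and Klrd1 -3.69 in dKO. The WT differences of Klrk1, Klrd1 and Klrc1 were thus largely lost with Foxp3 called by clonotype. Those of Klrk1 and Klrd1 were each larger under another setting.

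Klrb1c, the NK1.1 gene, was sparse in receptor T cells, and the libraries differed in opposite directions between classes. Over all receptor T cells it stood at 10.3 CPM (8.36 to 12.6) in WT and 7.83 CPM (6.15 to 9.83) in dKO, log2 -0.40 (-0.85 to 0.05), under the 20 CPM needed to enter the background. Without the TRAV11/TRAJ18 cells, in which it was higher in dKO, the ratio was -0.73 (-1.25 to -0.23), and in CD3+ cells without a contig it was -0.90 (-1.41 to -0.39). The thinned share was 0.651% and 0.902%, against 1.83% and 1.25% unthinned, so the order of the libraries turned with depth. In WT pDC-like cells the thinned share was 0.364%. Klrb1c was almost confined to small clonotypes among cells without Foxp3: 17 CPM in WT clonotypes of 1 cell, 5.32 CPM in those of 2 to 9 and 0 in those of 10 or more, and 19.4, 2.31 and 0 CPM in dKO. These cells include the TRAV11/TRAJ18 cells (52 WT cells of 52 clonotypes, 56 dKO cells of 55), which held 8 and 20 Klrb1c UMIs. Their part in these values was not tested. In the 10 clonotypes with the most cells, 5 per library, Klrb1c was found in 1 cell.

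The WT clonotype of 28 cells carried Klrk1, Klrd1 and Klrc1 together. Without thinning, Klrk1 was detected in 46.4% (27.5 to 66.1) of its cells at 301 CPM, Klrd1 in 64.3% (44.1 to 81.4) at 484 CPM, and Klrc1 in 53.6% (33.9 to 72.5) at 288 CPM. Ifng was detected in 64.3% of the same cells, and Klrb1c in none of the 28. No other of the 10 clonotypes passed 14.7% for any of the 3 genes, and the 5 dKO clonotypes were at or near 0. The median depth of the 28-cell clonotype was 2482 UMIs, and those of the 10 clonotypes ran from 1269 to 2626 UMIs.

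The TRAV11/TRAJ18 cells stood out in both libraries: Klrk1, Klrd1, Klrc1 and Klrb1c were higher than in the other receptor T cells, and Klrg1 was lower. In the WT library Klrk1 was 332 CPM (246 to 439) against 52.3 CPM, log2 2.67 (2.21 to 3.09). Klrd1 was 319 CPM (234 to 424) against 53.4 CPM, log2 2.58 (2.11 to 3.01). Klrc1 was 74.6 CPM (37.2 to 133) against 22.7 CPM, log2 1.72 (0.69 to 2.59). Klrb1c was 54.2 CPM (23.4 to 107) against 9.61 CPM, log2 2.50 (1.24 to 3.54). Klrg1 had 0 UMIs in the 52 cells and 45.0 CPM in the others, at least 2.21-fold lower against the floor of 3 UMIs, with an upper interval end of log2 -0.84. The intervals of all 5 left out 0. Of 7060 genes 9.53% were at least 2-fold higher and 10.0% lower.

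In the dKO library the same 4 genes were again higher. Klrk1 was 167 CPM (105 to 253) against 16.6 CPM, log2 3.33 (2.61 to 3.98). Klrd1 was 243 CPM (166 to 343) against 22.1 CPM, log2 3.46 (2.87 to 4.0). Klrc1 was 175 CPM (111 to 262) against 6.01 CPM, log2 4.86 (4.09 to 5.59). Klrb1c was 152 CPM (92.8 to 235) against 5.79 CPM, log2 4.71 (3.89 to 5.48). Klrg1 was lower, at 45.6 CPM (16.7 to 99.2) against 314 CPM, log2 -2.78 (-4.23 to -1.66). Of 6792 genes 9.32% were at least 2-fold higher and 16.1% lower. Klrb1c in both libraries and Klrk1 and Klrc1 in dKO passed the 20 CPM minimum only through the TRAV11/TRAJ18 cells, and Klrg1 in WT only through the others, so their direction is not read against these shares.

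Without thinning, at least 1 of Klrk1, Klrd1, Klrc1 and Klrb1c was detected in 35 of 52 WT and 38 of 56 dKO TRAV11/TRAJ18 cells. At least 2 of them were detected in 21 cells of each library. Ncr1 and Eomes, NK cell markers, had 0 UMIs in the class in both libraries. Thinned shares were 23.5% and 19.6% for Klrk1 in WT and dKO, and 21.6% and 21.4% for Klrd1. Klrc1 stood at 5.88% and 14.3%, and Klrb1c at 1.96% and 19.6%. The unthinned shares were 48.1% and 33.9% for Klrk1, 44.2% and 35.7% for Klrd1, 9.62% and 17.9% for Klrc1, and 13.5% and 32.1% for Klrb1c.

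Between the libraries, the summed UMIs of some of these receptors differed in the TRAV11/TRAJ18 cells. Klrc1 was higher in dKO from 23 against 11 UMIs, log2 1.23 (0.13 to 2.41), and Klrb1c from 20 against 8 UMIs, log2 1.49 (0.24 to 2.88). The Klrc1 UMIs came from 5 WT and 10 dKO cells. Its thinned shares overlapped, at 5.88% (1.23 to 16.2) in WT and 14.3% (6.38 to 26.2) in dKO. Klrk1 was lower, from 22 against 49 UMIs, log2 -0.99 (-1.79 to -0.24). Its thinned shares also overlapped, at 23.5% (12.8 to 37.5) in WT and 19.6% (10.2 to 32.4) in dKO. The interval for Klrd1 included 0, at log2 -0.39 (-1.09 to 0.29). Klrg1 had 0 UMIs in WT and 6 in dKO, at least 2.24-fold higher against the floor, with a lower interval end of log2 0.40. Its thinned share in the dKO class, 3.57% (0.435 to 12.3), was not distinguishable from the 2.05% of dKO pDC-like cells. Of 4311 genes 6.33% were at least 2-fold higher in dKO and 10.6% lower. The Klrb1c thinned share of 1.96% (0.0496 to 10.4) in WT and 19.6% (10.2 to 32.4) in dKO had intervals that barely met. Cd4 was 54.2 CPM in the WT and 266 CPM in the dKO class, and its part in these differences was not tested.

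**Figure D3:**
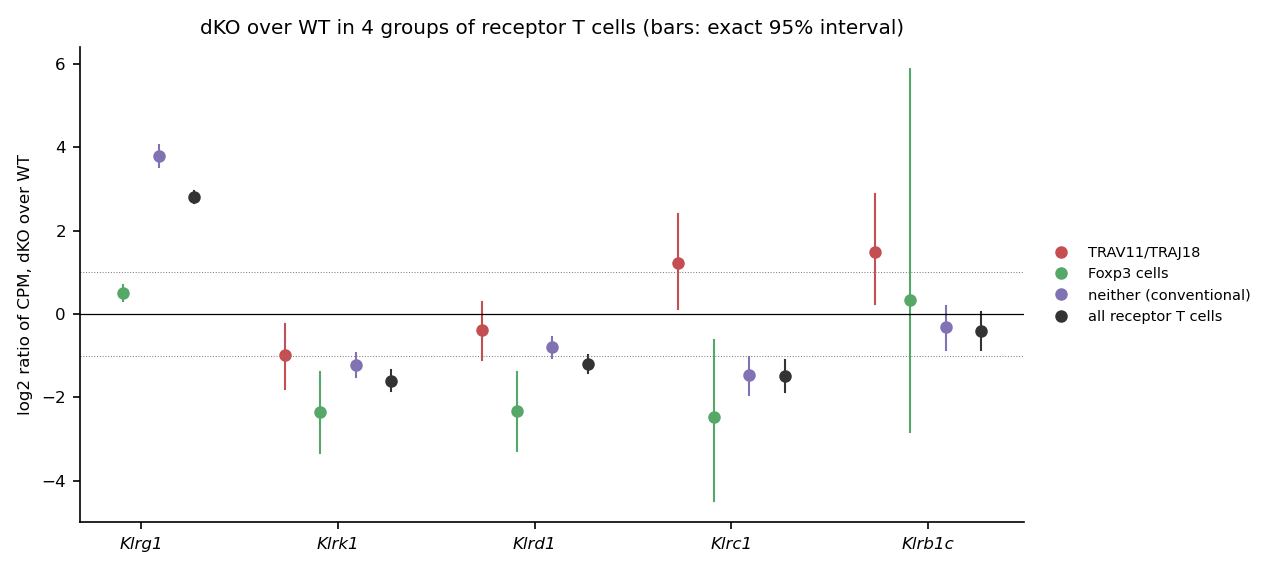
Log2 ratio of CPM, dKO over WT (y axis), of each receptor gene (x axis) in TRAV11/TRAJ18, Foxp3, conventional and all receptor T cells, with exact 95% intervals and dotted lines at a 2-fold ratio. Klrg1 is above 0 in the 3 groups drawn (0.50, 3.79 and 2.81; its TRAV11/TRAJ18 ratio is not drawn because WT had 0 UMIs), while Klrc1 and Klrb1c are above 0 in TRAV11/TRAJ18 cells (1.23 and 1.49) and Klrc1 is below 0 in the other 3 groups.

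Of 20 further killer lectin-like receptor genes, 14 were too low in TRAV11/TRAJ18 and other receptor T cells to be compared. The remaining 6 passed the minimum only through the TRAV11/TRAJ18 cells, so that they were higher there was fixed by the filter, and their levels are given as a description. Klrc2, which encodes NKG2C, an activating partner of CD94, was 88.1 against 5.29 CPM in WT and 30.4 against 2.79 CPM in dKO. Klre1, which encodes a partner of the Klri receptors, was 61.0 against 11.1 CPM and 75.9 against 3.0 CPM. Klra9, of the Ly49 family of MHC class I receptors, was 169 against 6.05 CPM in WT and 137 against 0.858 CPM in dKO. The other 3 were Klra1, Klra3 and Klra7, also of the Ly49 family. Genes of this family share sequence, so the division of reads among these 3 and Klra9 is uncertain.

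Of the adaptors that carry the receptors' signals, 9 were compared in TRAV11/TRAJ18 cells. None was at least 2-fold apart in WT, where 9.53% of all genes were higher and 10.0% lower. In dKO, where these shares were 9.32% and 16.1%, 1 was: Fcer1g (60.8 against 28.9 CPM, log2 1.07, -0.15 to 2.07), an interval that included 0. With 9 genes these counts are not set apart from the shares of all genes. Of 8 transcription factors and receptors of the NK-type programme, 7 were compared in WT and 8 in dKO. Zbtb16 was higher in both libraries and Zeb2 was lower in both (0 against 49.7 CPM in WT, 15.2 against 48.8 CPM in dKO). In dKO Tbx21 was also higher, and Eomes and Prdm1 lower, which made 1 of 7 lower in WT and 3 of 8 in dKO beside 10.0% and 16.1% of all genes. Zeb2, Eomes and Prdm1 passed the minimum in these calls only through the other receptor T cells, so nothing is read from that count. Zbtb16 passed it in both libraries only through the TRAV11/TRAJ18 cells, so that it was higher was fixed by the filter. The Eomes difference, 0 UMIs against 20.8 CPM, is under the 22.8 CPM that 3 UMIs stand for in the dKO class and so was not detectable at this depth. Of the 8 cytotoxic and effector genes 4 were at least 2-fold higher in each library, beside 9.53% of all genes in WT and 9.32% in dKO. They were Gzmb, Prf1, Ctsw and Xcl1 in WT and Fasl, Gzma, Ctsw and Xcl1 in dKO, so 2 were shared, and Gzma in dKO rests on 5 UMIs of 1 cell. Prf1 in WT and Gzma in dKO passed the minimum only through the TRAV11/TRAJ18 cells. Xcl1, a chemokine for cross-presenting dendritic cells, was 827 against 174 CPM in WT and 638 against 62.4 CPM in dKO. Ctsw, a protease of cytotoxic cells, was 624 against 295 CPM and 759 against 182 CPM.

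Over all receptor T cells, none of the 20 further receptor genes reached the minimum in the comparison of libraries, and 4 of the 5 members did. Klrg1 was higher in dKO and Klrk1, Klrd1 and Klrc1 lower. Klrk1 and Klrc1 passed the minimum through their WT level only. None of 9 adaptors passed a 2-fold difference, beside 3.43% of all genes higher and 2.53% lower, so nothing is read from that count. Hcst, which encodes the DAP10 adaptor of NKG2D, was 572 CPM in WT and 399 CPM in dKO, and Tyrobp, the DAP12 adaptor, was 28.8 and 29 CPM. Of 4 ligands compared 1 was lower (2.53% of all genes were), Clec2i, which encodes a ligand of an NKR-P1 receptor, at 49.1 CPM in WT and 23 CPM in dKO. H2-T23, the Qa-1 ligand of CD94/NKG2A, was 403 and 663 CPM.

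Cytotoxic genes did not move one way in receptor T cells. Of 7 compared, 2 were at least 2-fold higher in dKO and 3 lower, beside 3.43% and 2.53% of all genes compared. Higher were Gzmb (granzyme B) at 75.2 CPM in WT and 224 CPM in dKO, and the chemokine Ccl5 at 1480 and 5645 CPM. The lower ones were Fasl, a death ligand, at 101 and 35.5 CPM, Gzma (granzyme A) at 33.8 and 7.72 CPM, and Xcl1 at 184 and 70.5 CPM. Gzma passed the minimum through WT only. Among 7 transcription factors and receptors compared, Prdm1 was at least 2-fold higher in dKO, and so was Eomes (6.38 and 20.5 CPM), which passed the minimum through dKO only.

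Cells with NK markers and no receptor contig (107 WT and 121 dKO) held the same 4 receptors at high levels in WT. There Klrk1 was 380 CPM (311 to 461), Klrd1 504 CPM, Klrc1 384 CPM and Klrb1c 216 CPM, which lay log2 2.75, 3.13, 4.03 and 4.39 above receptor T cells. In dKO the class had 116 CPM of Klrk1, 151 CPM of Klrd1, 23.2 CPM of Klrc1 and 42.6 CPM of Klrb1c. Klrg1 was higher in dKO here too, at 51.2 and 155 CPM. The class was not made of the same cells in both libraries. Ncr1, an NK receptor gene, was 468 CPM in WT and 132 CPM in dKO, Eomes 161 and 701 CPM, Cd4 197 and 925 CPM, and the summed CD3 genes 1334 and 3295 CPM. Their part in the receptor differences was not tested.

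Klrd1 had a further site of expression with little Klrc1: cells with plasmacytoid dendritic cell markers (pDC-like, 1510 WT and 3831 dKO). Klrd1 was 292 CPM (274 to 311) in WT and 258 CPM (249 to 267) in dKO, which was log2 2.34 (2.19 to 2.50) and 3.35 (3.16 to 3.55) above receptor T cells. The thinned share was 23% (20.6 to 25.6) and 19.9% (18.6 to 21.2), against 35.0% and 45.8% unthinned. Klrc1 was 1.17 and 1.06 CPM in these cells, and none of the 253 WT and 758 dKO pDC-like cells with a Klrd1 UMI after thinning had a Klrc1 UMI.

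The Klrd1 level of pDC-like cells was as high in those without T cell transcripts. In the 1217 WT and 3083 dKO cells without any CD3 UMI it was 323 CPM (301 to 346) and 273 CPM (262 to 283). Klrg1 behaved otherwise: its 2.63 and 31.0 CPM became 1.57 and 1.93 CPM in those cells, so the difference between libraries in the class was carried by cells with CD3 UMIs. Klra17, another lectin-like receptor gene, was 268 CPM in WT and 344 CPM in dKO pDC-like cells against 0.425 and 1.80 CPM in receptor T cells. Tyrobp stood at 5301 and 5624 CPM there.

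Over all receptor T cells, Klrk1, Klrc1 and Klrb1c were detected more often in cells that held another of these receptors. Among receptor T cells thinned to 1000 UMIs, Klrk1 was found in 27.0% (38 of 141) of WT cells with a Klrd1 UMI and in 3.55% of those without. In dKO the shares were 12.5% (11 of 88) and 1.40%. Klrc1, the partner of Klrd1, was found in 7.09% (10 of 141) of WT cells with Klrd1 and 1.14% without, and in 7.95% (7 of 88) and 0.712% in dKO. Klrb1c was found in 23.5% (8 of 34) of dKO cells with Klrc1 and 0.702% without, and in 6.38% (3 of 47) and 0.570% in WT.

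The TRAV11/TRAJ18 cells, high in all 4, enter these shares, and 4 of the 8 dKO cells with Klrc1 and Klrb1c were of that class. Without them, in a reading added after the data were seen, Klrk1 was found in 26.2% of WT cells with Klrd1 and 3.35% without, and in 11.8% and 1.17% in dKO. Klrb1c was found in 15.4% (4 of 26) of dKO cells with Klrc1 and 0.527% without. Klrc1 was found in 1.89% (1 of 53, 0.0478 to 10.1) of dKO cells with Klrk1 and 0.663% without, which cannot be told apart at this depth. Within the TRAV11/TRAJ18 class the numbers are too small to show such a difference: in dKO Klrk1 was found in 16.7% (2 of 12) with Klrd1 and 20.5% (9 of 44) without, and Klrc1 in 8.33% and 15.9%, whereas Klrb1c was found in 4 of 8 cells with Klrc1 and 14.6% (7 of 48) without.

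Klrg1 was the exception. It was found in 1.56% (1 of 64) of dKO cells with Klrk1 and in 19.3% of those without, and in 5.68% (5 of 88) of those with Klrd1. In WT the shares were 1.96% (3 of 153) with Klrk1 and 3.01% without, a difference not detectable at this depth. Without the TRAV11/TRAJ18 cells and the 5 largest clonotypes the dKO shares were 1.89% (1 of 53) and 13% without Klrk1.

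**Figure D4:**
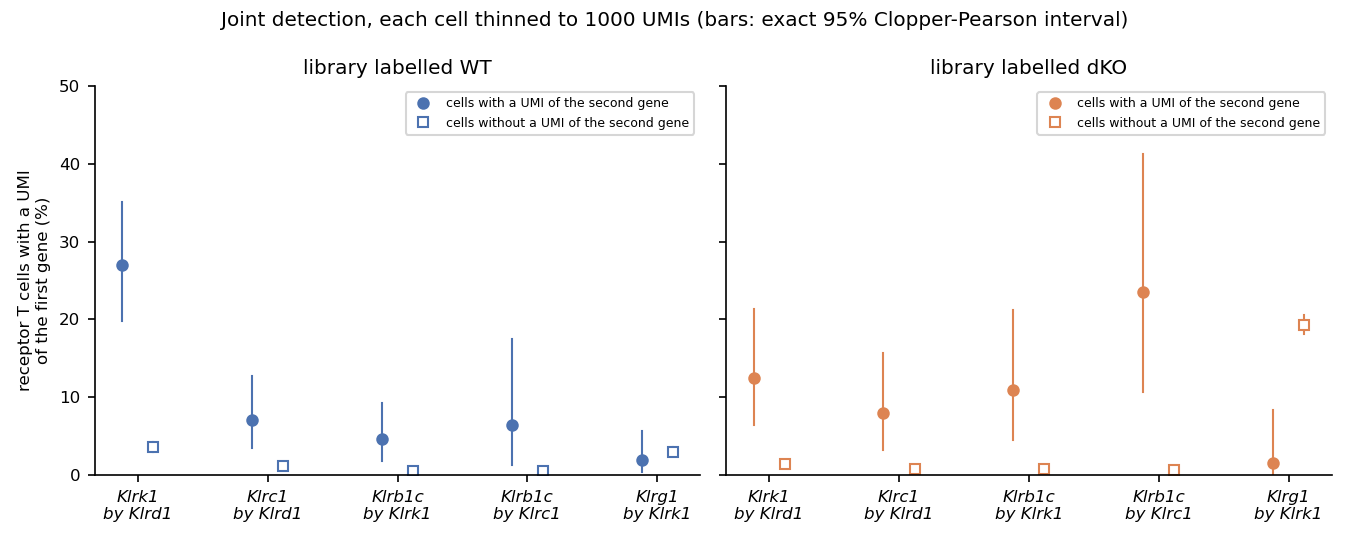
Percent of receptor T cells with a UMI of the first gene (y axis) among cells with (filled circle) and without (open square) a UMI of the second gene (x axis pairs), in cells thinned to 1000 UMIs of the WT (left) and dKO (right) library, with exact 95% Clopper-Pearson intervals. Klrk1, Klrc1 and Klrb1c are more often found with their paired gene than without it in both libraries, whereas Klrg1 in dKO is at 1.56% with and 19.3% without Klrk1.

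Across 31 profiles of a class in a library, each of at least 50 cells, the receptors fell into separate patterns (Pearson r of log2(CPM + 10), a description over profiles that share libraries and base composition). Klrg1 had negative values with the other 4, with r of -0.18 to -0.34 (weak), and -0.40 to -0.61 over the 15 profiles of receptor T cells alone. Klrc1 and Klrb1c were alike (0.92 over 31 profiles and 0.93 over 15), and so were Klrk1 and Klrc1 (0.90 and 0.91). Klrk1 and Klrd1 had r of 0.88 over receptor T profiles and 0.53 over all, which include the pDC-like cells.

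Of 8789 genes, the 5 with the pattern most like that of Klrg1 were Neb (0.91), Ccr3 (0.91), Tent5a (0.89), Ncmap (0.89) and Tnfrsf9 (0.88), the last encoding the costimulatory receptor 4-1BB. For Klrk1 they were Klrc1 (0.90), Klrc2 (0.88), Xcl1 (0.88), Samd3 (0.86) and Klrb1c (0.85). For Klrd1 they were Sp110 (0.81), Ly6c2 (0.81), Trim12a (0.81), Mctp2 (0.78) and Il12rb2 (0.77), and held no other lectin-like receptor gene. For Klrc1 they were Klrb1c (0.92), Klrk1 (0.90), Styk1 (0.89), Klre1 (0.87) and Samd3 (0.87). For Klrb1c they were Styk1 (0.93), Klrc1 (0.92), Klre1 (0.89), Klrc2 (0.88) and Klra7 (0.88).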

How the data were processed

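The libraries were made with the 10x 5′ v2 kit and the values are UMI counts per gene and cell that the authors deposited, with contig tables from the same cells. Per the labels' processing notes the tool was Cell Ranger, with build mm10, and per the file headers its version was 7.0.1. UMI counts are not normalised. No test between genotypes was possible, since each is 1 library of 2 pooled mice. Cells over 200 genes and under 5% mitochondrial UMIs were kept, slightly more than the study states. Doublets were kept, because Scrublet's own threshold marked 6 WT and 0 dKO cells and so had not worked.

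Receptor T cells had a productive TRA or TRB contig and fewer than 3 UMIs of each of the plasmacytoid dendritic, C1q, other myeloid and B cell marker lists; the 235 WT and 421 dKO cells above that were left out. They were split in order into TRAV11/TRAJ18, Foxp3 (1 UMI; cycling at 3 UMIs of Mki67, Top2a, Birc5, Ccna2, Ube2c, Pclaf), cycling, Ifng and Il17a/Il17f, 1 further class that is not reported here, and remaining cells. Cells without a contig were gated at 3 UMIs of a non-T list or 2 of the NK list (Ncr1, Eomes, Prf1, Gzma), and the rest were split by a CD3 UMI after the data were seen. No member is in a gate, and "-like" names rest on these markers only. Background shares cover genes with at least 20 CPM in either group and 10 UMIs over both. A class at 0 was set to a floor of 3 UMIs. The named genes were the 5 members, the genes of 5 related lists past a 2-fold difference or needed for a result, the 5 genes most like each member and the 5 clonotypes with the most cells per library. The members and lists were chosen with earlier results of these data known. The interval code was checked on simulated counts.

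The work used Python 3.11.15 with scipy 1.17.1 for the intervals, scanpy 1.11.5 for Scrublet, matplotlib 3.10.9, pandas 2.3.3 and numpy 2.4.6, and edgeR 4.0.16 in R 4.3.3 for TMM factors only. Alternatives covered cell and doublet filters, TMM scaling, means of cells, clonotypes, gates, shared barcodes, thinning depth and the CPM minimum.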

Additional observations from a re-analysis of the deposited data

Results flagged for a closer look

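The difference between libraries had opposite directions in different cell classes for 3 of the receptors, each with a counting interval that left out 0. The differences between classes were not tested, because each genotype is 1 library. Klrg1 was higher in dKO in noncycling Foxp3 cells (log2 0.81), conventional cells (3.79), pDC-like cells (3.56, carried by cells with CD3 UMIs) and cells with NK markers and no receptor (1.60), and lower in cycling Foxp3 cells (-0.46). Over all Foxp3 cells, the values outside the 2 largest dKO clonotypes had intervals that overlapped between libraries. The cycling Foxp3 value rests on 44 WT and 142 dKO cells, whose shares with a Klrg1 UMI overlapped. Klrc1 was higher in dKO in TRAV11/TRAJ18 cells (1.23) and lower in noncycling Foxp3 cells (-2.68), conventional cells (-1.47) and cells with NK markers and no receptor (-4.05). Its TRAV11/TRAJ18 value rests on 11 WT and 23 dKO UMIs, and the shares of cells with a Klrc1 UMI overlapped. Klrb1c was higher in dKO in TRAV11/TRAJ18 cells (1.49) and lower in pDC-like cells (-1.30) and cells with NK markers and no receptor (-2.34). The class with NK markers was not made of the same cells in both libraries, with summed CD3 genes at 1334 CPM in WT and 3295 CPM in dKO. The part of this in its values was not tested. The Klrb1c value in pDC-like cells rests on 11 WT and 16 dKO UMIs, and in those without a CD3 UMI on 2 and 3 UMIs, at 0.786 CPM (0.0952 to 2.84) and 0.322 CPM (0.0665 to 0.942).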

How the results depend on the processing

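No paired analysis was possible because each genotype has 1 library. Of 673 alternative values of 48 log2 ratios, 623 stayed within the counting interval and 50 moved beyond it. A change of direction was looked for only where the main ratio was at least 2-fold, and 0 of those alternatives changed direction. Ratios with 0 UMIs in a group have no alternative value. For dKO over WT in receptor T cells, Klrg1 (2.81) was 3.14 as a mean of each cell's own CPM, 1.83 with 1 cell per clonotype, 2.25 without the largest clonotype and 2.00 without the 5 largest, a setting chosen after seeing the data. In the same 1-cell-per-clonotype setting Klrk1 was -1.03, Klrd1 -0.68 and Klrc1 -1.07, and without the 5 largest Klrk1 was -1.31 and Klrd1 -0.95. In conventional cells Klrg1 (3.79) was 2.82 with 1 cell per clonotype, 3.06 without the largest, 2.77 without the 5 largest, 3.23 with Foxp3 at 2 UMIs and 2.67 with Foxp3 by clonotype, also chosen after seeing the data. Klrk1 there (-1.22) was -0.68, -0.93 without the 5 largest and -0.81 with Foxp3 by clonotype. In Foxp3 cells Klrk1 (-2.35) was -0.17 with Foxp3 at 2 UMIs. For Foxp3 over conventional cells in WT, Foxp3 at 2 UMIs gave 3.39 for Klrg1 and -3.06 for Klrk1, and Foxp3 by clonotype gave 3.50 for Klrg1, -0.09 for Klrk1, -0.15 for Klrd1 and -0.30 for Klrc1. With the highest Scrublet scores and cells with 2 or more TRB removed, Klrd1 was -2.47 in WT, and Klrk1 was -3.71 and Klrd1 -3.69 in dKO. The cause was not tested. Background counts moved with the CPM minimum, from 221 higher and 163 lower genes in receptor T cells to 136 and 94 at 50 CPM and 916 and 973 with no minimum. Shares moved with thinning depth in 49 of 92 alternatives. Low UMI numbers limit Klrc1 and Klrb1c in Foxp3 cells.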
